A study of Mus musculus with 2 samples.

Results

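The Mir322, Mir503 and Mir351 cluster is a run of 7 microRNA genes on the mouse X chromosome: Mir322, Mir503, Mir351, Mir542, Mir450-2, Mir450-1 and Mir450b. They were taken by name from the GENCODE annotation of mm10, and all 7 had a row in the deposited tables, which hold 1973 microRNA genes. The data came from whole lung of healthy B6NCrl embryos of both sexes at embryonic day 15.5, with no treatment named. The single group, embryonic lung, had 2 libraries of small RNA, replicate 1 from a pool of 78 embryos and replicate 2 from a pool of 62. The labels give both pools 1 donor identifier. SDs therefore measure only how these pools and their preparation differ. The p-values set genes or lists of genes against each other, with these 2 libraries as the only replicates. There is no second condition, and the levels below describe this tissue at this stage.

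A microRNA is cut from a hairpin in a longer transcript, and hairpins that lie close together on a strand can be cut from the same transcript. The mature product finds messenger RNAs mainly by pairing of its bases 2 to 8, the seed, so products with the same seed can bind the same sites. Mir322, whose human counterpart is MIR424, shares its seed with the miR-15 and miR-16 family, known for holding back cyclins and other drivers of the cell cycle. In mouse myoblasts miR-322 and miR-503 promote exit from the cell cycle, and in human pulmonary artery endothelial cells miR-424 and miR-503 lower FGF2 and its receptor FGFR1. Mir351 carries the seed of the miR-125 family, and in human cells miR-542-3p targets the mitotic inhibitor of apoptosis survivin.

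Mature products were found in RefSeq for all 7 members and hairpins for 6. The sequences below show why the members fall into several seed groups, with the seed in capitals and each sequence read 5′ to 3′ (RefSeq, GRCm38.p6). The first set holds miR-322-5p, the related product of Mir503 and the products of the other genes that carry the miR-322-5p seed and are known as the miR-15 and miR-16 family.
miR-322-5p: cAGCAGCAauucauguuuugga
miR-503-5p: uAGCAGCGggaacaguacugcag
miR-15a-5p: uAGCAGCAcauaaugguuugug
miR-15b-5p: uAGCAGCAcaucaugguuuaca
miR-16-5p: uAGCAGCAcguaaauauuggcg
miR-195a-5p: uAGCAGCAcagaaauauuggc
miR-497a-5p: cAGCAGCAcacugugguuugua
Counting from 1 at the 5′ end, miR-322-5p and miR-503-5p differ within the seed at the last base alone, A8G. Beyond the seed they match at 5 of 14 positions, whereas miR-322-5p and miR-15b-5p match at 9 of 14 and miR-322-5p and miR-16-5p at 5 of 14.

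The second set shows Mir351 beside the miR-125 family, whose seed it has in full.
miR-351-5p: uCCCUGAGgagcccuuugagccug
miR-125a-5p: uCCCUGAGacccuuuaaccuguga
miR-125b-5p: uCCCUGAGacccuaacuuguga
After the seed, miR-351-5p and miR-125a-5p have the same base at 2 of 16 positions when set base under base without gaps. Both also hold the stretch cccuuu past the seed, at different positions, which this count does not see.

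The third set holds the members at the far end of the cluster, where near-identical products bear on what could be counted.
miR-542-3p: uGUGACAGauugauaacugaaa
miR-450a-5p: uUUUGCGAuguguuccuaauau
miR-450b-5p: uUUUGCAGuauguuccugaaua
miR-450a-1-3p: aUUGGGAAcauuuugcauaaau
miR-450b-3p: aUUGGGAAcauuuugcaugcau
miR-450a-2-3p: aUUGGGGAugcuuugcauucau
Mir450-1 and Mir450-2 both give miR-450a-5p, letter for letter, over all 22 nt. A read of that product cannot be placed in one gene, and multiply mapped reads are listed apart from the gene counts. The other arm of Mir450-1 shares 18 nt with the hairpin of Mir450b, and the 5p arms of Mir450-1 and Mir450b differ within the seed by G7A and A8G. For Mir322, Mir503, Mir351 and Mir542 the longest stretch that either mature product shares with the listed hairpin of another gene was 11 nt.

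All 7 genes lie on the minus strand within 6353 bp, between 53047997 and 53054349 of the X chromosome (mm10). Read in the direction of transcription, Mir322 (ENSMUSG00000065418.1, 53054255 to 53054349) comes first, then Mir503 (ENSMUSG00000076122.1, 53053984 to 53054054) after a gap of 200 bp and Mir351 (ENSMUSG00000065503.1, 53053255 to 53053353) after another 630 bp. These 3 occupy 1095 bp. A gap of 3767 bp separates them from Mir542 (ENSMUSG00000076140.1, 53049403 to 53049487). Mir450-2 (ENSMUSG00000076399.1, 53048299 to 53048367), Mir450-1 (ENSMUSG00000065486.1, 53048154 to 53048244) and Mir450b (ENSMUSG00000076050.1, 53047997 to 53048078) follow, with gaps of 1035, 54 and 75 bp. No annotated gene on the minus strand contains any of the 7. The noncoding gene C430049B03Rik lies on the same strand and ends 696 bp before Mir322, and the lincRNA gene Gm28730 lies in the gap between Mir351 and Mir542.

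The libraries held 5354530 and 6489390 gene counts on the annotated strand, so that 1 count equalled 0.187 and 0.154 CPM (counts per 1000000 of these gene counts) in replicates 1 and 2. The lung label was checked on microRNAs of its main cell types: Mir126a of endothelium averaged 67953 CPM, Mir143 of smooth muscle and other mesenchyme 79294 CPM, and Mir429 and Mir200c of epithelium 13376 and 10967 CPM. Markers of heart, liver, nerve and red cells (Mir208a, Mir208b, Mir122, Mir137 and Mir451a) averaged 137 to 524 CPM. Mir124a-1, also of nerve, had 0 counts in both libraries, but other Mir124a genes are known to give the same product, so this row could not show whether it was present. Fewer cells of a type and less RNA per cell cannot be told apart in whole tissue.

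All 7 members were detected, meaning at least 10 counts in both libraries, as were 18.1% of the 1973 genes in the tables (357 genes). Together they took 8.88% of the gene counts in replicate 1 (475442 counts) and 8.28% in replicate 2 (537636 counts), a mean of 8.58% ± 0.420 (SD, n = 2). The median member stood at 987 CPM, beside 123 CPM for the median detected gene. Their gene counts ranked 2nd to 264th of all genes, among which those with identical copies are undercounted.

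Mir322, the first hairpin and the one with the miR-15 and miR-16 seed, was counted 385510 times in replicate 1 and 446727 times in replicate 2, or 71997 and 68840 CPM. Its mean of 70418 ± 2233 CPM (SD, n = 2) made up 82.1% ± 1.42 of all counts of the cluster. At this depth the exact 95% binomial interval in replicate 1 ran from 71778 to 72216 CPM, narrower than the gap between the libraries, and it covers counting error only. The genes nearest to it in level were Mir126a, Mirlet7g and Mir143, at mean log2 differences from Mir322 of -0.05, -0.08 and 0.17 over the 2 libraries. Mir322, at 71997 and 68840 CPM in replicates 1 and 2, was above Mir126a, at 68906 and 67001 CPM, within each library. Mirlet7g stood below it in replicate 1 (64733 CPM) and slightly above it in replicate 2 (68872 CPM), so that order is not settled. Mir143, at 76627 and 81960 CPM, was the only gene with a higher mean than Mir322, and it was above Mir322 within each library.

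Mir351, the third hairpin and the one with the miR-125 seed, had 71940 and 71213 counts, or 13435 and 10974 CPM in replicates 1 and 2 (12205 ± 1741 CPM, SD, n = 2). It ranked 18th of all genes and second in the cluster, with 14.2% ± 1.33 of the cluster's counts. Mir503, between Mir322 and Mir351 on the chromosome, was lower than both of its neighbours. It reached 10859 and 11193 counts, or 2028 and 1725 CPM (1876 ± 214 CPM, SD, n = 2), which was 2.18% ± 0.143 of the cluster. By position the level therefore did not fall step by step from Mir322 on: the middle one of these 3 hairpins was the lowest of them in both libraries.

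Mir542, past the long gap, stood at 991 and 984 CPM in replicates 1 and 2 (5307 and 6383 counts), the closest agreement between libraries in the cluster, with an SD of 0.538% of its mean. Mir450b, the last hairpin, stood at 288 and 275 CPM (282 ± 9.05 CPM, SD, n = 2). It was counted far more often than Mir450-1, at 37.2 and 38.1 CPM, or Mir450-2, at 15.7 and 13.3 CPM. Mir450-2 had 84 counts in replicate 1 and 86 in replicate 2, and its exact 95% intervals, 12.5 to 19.4 CPM and 10.6 to 16.4 CPM, overlapped. The gene counts of Mir450-1 and Mir450-2 leave out reads of the miR-450a-5p that they share, taken to be on the line for reads mapped to several places, so their places at the bottom of the order are uncertain. With those reads left out, the 3 Mir450 genes held 0.389% ± 0.00725 of the cluster's counts.

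**Figure D1:**
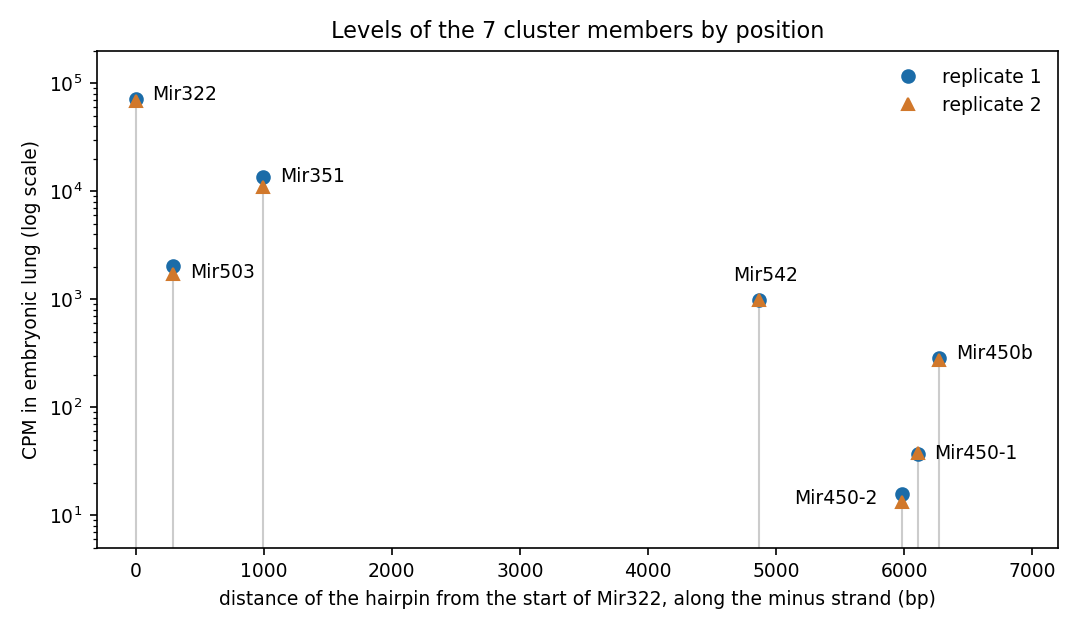
CPM of each member (log axis) in replicate 1 (circles) and replicate 2 (triangles) against the distance of its hairpin from the start of Mir322 along the minus strand, in bp; grey lines mark the position. Mir322, Mir503 and Mir351 lie within 1095 bp and hold 98.5% of the cluster's gene counts, and the levels do not fall evenly with distance. Mir450-1 and Mir450-2 are undercounted, since reads of their shared miR-450a-5p are taken to be missing from the gene counts.

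The order of the members by level was Mir322, Mir351, Mir503, Mir542, Mir450b, Mir450-1 and Mir450-2, the same in both libraries. Mir322 exceeded Mir351 by 5.80-fold (log2 2.54 ± 0.161), Mir351 exceeded Mir503 by 6.49-fold (log2 2.70 ± 0.0413), and Mir503 exceeded Mir542 by 1.89-fold (log2 0.92 ± 0.157). Below these, Mir542 exceeded Mir450b by 3.51-fold (log2 1.81 ± 0.0386), Mir450b exceeded Mir450-1 by 7.49-fold (log2 2.90 ± 0.0707), and Mir450-1 exceeded Mir450-2 by 2.61-fold (log2 1.38 ± 0.196, SD over the 2 libraries throughout). Each of the 6 differences was larger than its SD, and no pair of neighbours overlapped between libraries. The steps below Mir450b hold for the gene counts alone, since reads of the miR-450a-5p shared by Mir450-1 and Mir450-2 are taken to be missing from them. An exact 2-sided permutation test gave p = 0.333 throughout, which is the lowest value possible with 2 libraries, and 0.333 after Benjamini-Hochberg adjustment over the 6 pairs, so none could pass 0.05.

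By position, the 3 leading hairpins held 98.5% of the cluster's gene counts in replicate 1 and 98.4% in replicate 2. The 4 after the long gap held 1.54% ± 0.0575 (SD, n = 2). Reads of the miR-450a-5p shared by Mir450-1 and Mir450-2 are taken to be missing from the gene counts. This split therefore holds for the gene counts alone, and the share of the 4 can only be too small on this account. The hairpins differ in base composition as well as in level: those of Mir322, Mir503 and Mir542 were 51.6%, 54.9% and 51.8% G or C, and those of Mir450-2, Mir450-1 and Mir450b were 36.2%, 33.0% and 30.5% G or C. Predicted folding energies ran from -42.9 kcal/mol for Mir322 to -26.5 kcal/mol for Mir450-2, the shortest of the 6 hairpins at 69 nt, and Mir450-1 (-41.0 kcal/mol) was close to Mir322. Per 10 nt of hairpin the energies ran from -5.30 kcal/mol for Mir503 to -3.84 kcal/mol for Mir450-2, with Mir322 at -4.52 and Mir450-1 at -4.51. With 6 hairpins that share a locus, these values are a description.

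Among genes that carry the seed of miR-322-5p, Mir322 had the most gene counts. RefSeq lists 10 other genes with that seed, 9 of them had a row in the tables, and 5 of the 9 were detected. Mir15a, which lies beside Mir16-1 on chromosome 14, had 3985 and 4121 CPM, and Mir16-1 had 2244 and 2086 CPM. Mir195a had 1561 and 1500 CPM, Mir15b 1231 and 1092 CPM, and Mir16-2, the chromosome 3 copy of Mir16-1, 459 and 424 CPM. Mir195b had 1 and 0 counts, and Mir6342, Mir6353 and Mir6419 had 0 in both libraries. Mir322, at 71997 and 68840 CPM, exceeded the sum of the 9 seed mates, at 9478 and 9222 CPM, by 7.53-fold (log2 2.91 ± 0.0178, SD, n = 2). It thus held 88.3% ± 0.128 of the counts of those genes with this seed that had a row. Mir497 had no row, and the reads at its place, described below, are not in this share. With them added, a choice made after the values were seen, the log2 ratio was 2.68. Mir16-1 and Mir16-2 give the same miR-16-5p and lose reads in the same way as Mir450-1 and Mir450-2, so on this account the fold can only be too large. The tables hold 3588198 and 4144809 multiply mapped reads and do not say how many are miR-16-5p, so neither the size nor the direction of the difference in product is bounded. Mir503, whose seed differs from theirs by 1 base, stood below Mir15a at 2028 and 1725 CPM against 3985 and 4121 CPM, a log2 ratio of -1.12 ± 0.199.

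Mir351 likewise had more gene counts than the other genes of its seed. Of the 5 seed mates, all with a row in the tables, Mir125a had 3690 and 3394 CPM, Mir125b-2 had 301 and 324 CPM and Mir125b-1 had 222 and 226 CPM, while Mir6367 and Mir6394 had 0 counts. Mir351, at 13435 and 10974 CPM, exceeded their sum, at 4213 and 3943 CPM, by 2.98-fold (log2 1.57 ± 0.139, SD, n = 2) and held 74.8% ± 1.81 of the counts of genes with this seed. The Mir125b genes share miR-125b-5p, so here too the fold can only be too large on this account, and by an amount that the tables do not bound. Mir125a shares its product with no listed gene, and Mir351 was 3.43-fold higher than Mir125a alone (log2 1.78 ± 0.121), which does not bear on the Mir125b genes. The exact 2-sided permutation test gave p = 0.333 for both seed comparisons, and 0.333 after adjustment over the 2. The tables count a gene as a whole, so the arm that the reads came from was not measured, and the comparison is between genes and not between products. The other seeds of the cluster had few mates: Mir6966, which shares the seed of miR-542-5p, had 0 and 2 counts, and Mir6352, which shares the seed of miR-450a-1-3p and miR-450b-3p, had 0 in both libraries.

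**Figure D2:**
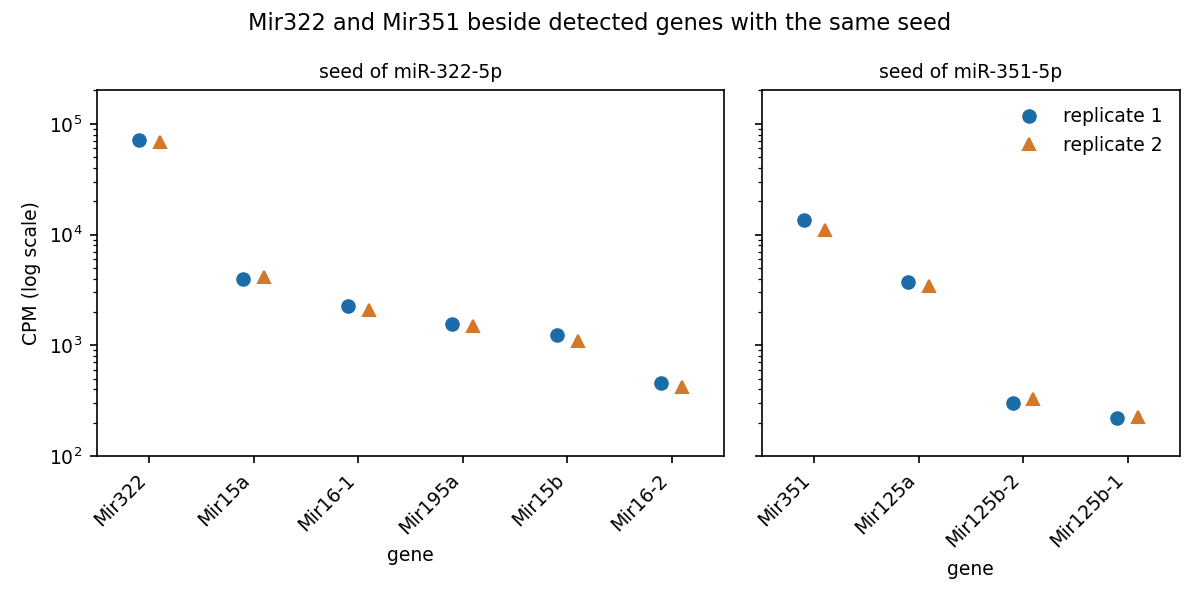
CPM (log axis) in replicate 1 (circles) and replicate 2 (triangles) of Mir322 and the detected genes that share the seed of miR-322-5p (left), and of Mir351 and the detected genes that share the seed of miR-351-5p (right). Mir322 at 71997 and 68840 CPM and Mir351 at 13435 and 10974 CPM stand above each of their seed mates.

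The clusters chosen for comparison were the Mir17 cluster on chromosome 14 and its copy on the X chromosome, the Mir106a cluster. Products of the Mir17 cluster drive proliferation, and that cluster is needed for normal lung growth in mice. Likeness between clusters was not measured. The 7 members, with 475442 and 537636 counts, exceeded the 6 genes of the Mir17 cluster, with 214020 and 281001 counts, by 2.06-fold (log2 1.04 ± 0.152, SD, n = 2). That direction turned without Mir322: the other 6 members held 1.54% ± 0.197 of all gene counts, against 4.16% ± 0.236 for the Mir17 cluster, 2.71-fold less (log2 -1.44 ± 0.267, a comparison chosen after the values were seen). The 7 members, at 8.88% and 8.28% of the gene counts, exceeded the Mir106a cluster, at 0.169% and 0.153%, by 53.3-fold (log2 5.74 ± 0.0280). Here the direction held without Mir322 too, at a log2 ratio of 3.25. The exact 2-sided permutation test gave p = 0.333 for both clusters, and 0.333 after adjustment over the 2.

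By gene counts the first hairpin was the highest in each of these clusters. Genes of the Mir17 and Mir106a clusters share the products of Mir19b and of Mir92, whose multiply mapped reads are missing, so this order and both folds over those clusters hold for the gene counts alone. Mir322 averaged 70418 CPM, Mir17 averaged 25936 ± 1310 CPM, and Mir106a averaged 645 ± 50.5 CPM (SD, n = 2). Taking as a run at least 3 detected hairpins on the same strand, each within 10000 bp of the next, there were 15 runs, and the first detected hairpin was the highest in 6 of them, or 40.0%. Mir322 held 82.1% of its run, the third largest share that a leading gene had among the 15, where the median was 56.6%. Its mean level was 4866-fold that of Mir450-2, the widest range of the 15 runs, where the median was 79.5-fold and the Mir17 cluster came next at 2043-fold. That rank rests on genes with shared mature products: with those left out, a choice made after the values were seen, Mir322 exceeded its lowest neighbour, Mir450b, by 249.9-fold, which ranked 5th of 14 runs. In the Mir17 cluster the lowest genes were Mir19b-1, at 12.1 and 13.3 CPM, and Mir19a, at 54.0 and 57.5 CPM. In the Mir106a cluster it was Mir19b-2, at 5.42 and 6.47 CPM, whose product is that of Mir19b-1.

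**Figure D3:**
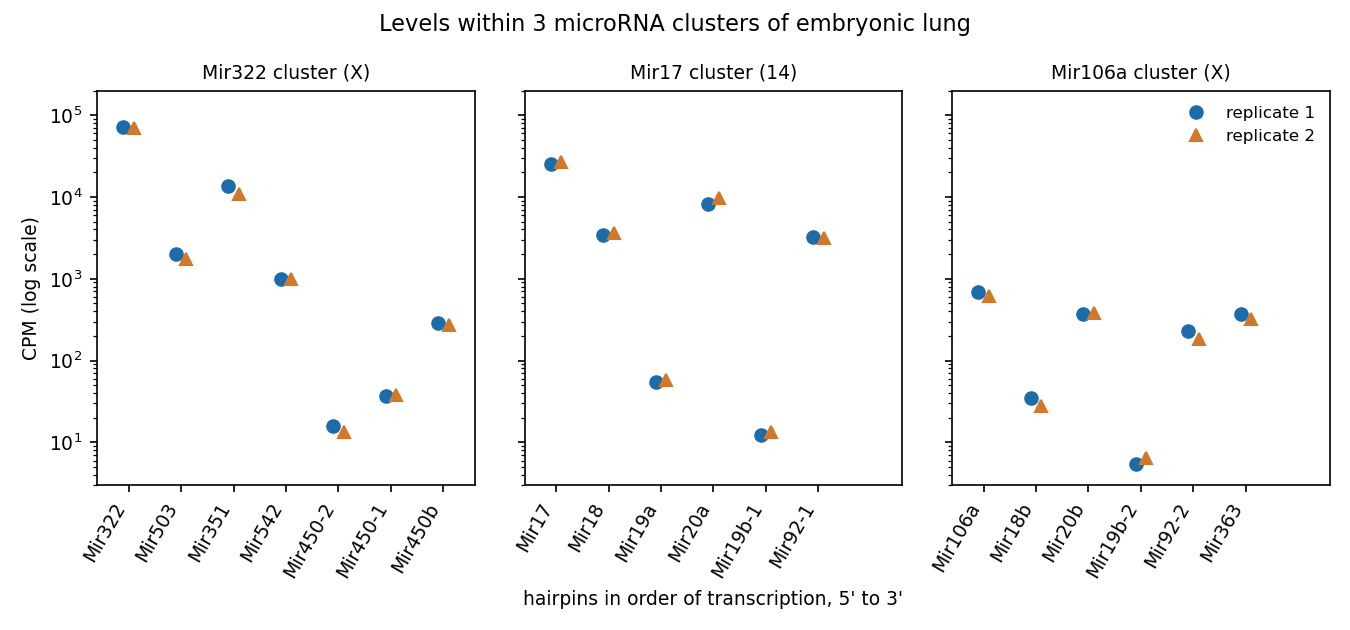
CPM (log axis) in replicate 1 (circles) and replicate 2 (triangles) of each hairpin of the Mir322, Mir17 and Mir106a clusters, in order of transcription; the number or letter in brackets is the chromosome. By gene counts the first hairpin is the highest in each panel, and the Mir106a cluster lies far below the Mir322 cluster, which is also on X.

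The cluster held most of what was counted from the X chromosome. The 120 microRNA genes placed on X took 12.3% and 11.5% of the counts in replicates 1 and 2, with 38 of them detected. The 7 members made up 72.0% ± 0.262 of that (SD, n = 2). The other 113 genes took 3.42% and 3.25% of all counts. Among them at least Mir92-2 and Mir19b-2 share a product with another gene, as Mir450-1 and Mir450-2 do within the cluster. Shared products were not listed for all of the rest, for example Mirlet7f-2, 5th on X at 4386 and 3960 CPM in replicates 1 and 2. These shares of X therefore hold for the gene counts alone. Mir322 and Mir351 were the first and second of the X-linked genes, followed by Mir98, a let-7 relative, at 11272 and 11086 CPM, and Mir652 at 7385 and 6684 CPM. Mir351 at 13435 and 10974 CPM overlapped with Mir98. Mir503 and Mir542 were 7th and 9th on X.

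Between the pools, Mir351, Mir503 and Mir450-2 had the largest ratios of the cluster, and that of Mir450-2 rests on few counts. In CPM, 6 of the 7 members were lower in replicate 2 than in replicate 1, as were 49.0% of the 357 detected genes; with TMM or DESeq2 library sizes it was 5 members, since Mir542 turned to 0.01 with either. Mir351 was the only member beyond 1.2-fold, at a log2 ratio of replicate 2 over replicate 1 of -0.29, with an exact 95% binomial interval of -0.31 to -0.28 that covers counting error only. Among all detected genes 26.9% were beyond 1.2-fold in either direction and 13.2% were lower by more than that. Among the 95 detected genes above a mean of 1000 CPM, which include Mir322, Mir351 and Mir503, 4.21% were beyond 1.2-fold (4 genes). Mir503 was at -0.23 (interval -0.27 to -0.20), just inside that fold. Mir322 was at -0.06 (-0.07 to -0.06), Mir450b at -0.07 (-0.16 to 0.03), Mir542 at -0.01 (-0.06 to 0.04), Mir450-1 at 0.03 (-0.24 to 0.31) and Mir450-2 at -0.24 (-0.69 to 0.21). For these last 4 members the interval included 0. The median member's ratio was -0.07, beside 0.01 for the median detected gene. Markers of other tissues also differed between the pools: Mir208a had 573 and 255 CPM, Mir208b 269 and 780 CPM and Mir122 470 and 278 CPM in replicates 1 and 2, and their part in the shift of Mir351 and Mir503 was not tested.

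**Figure D4:**
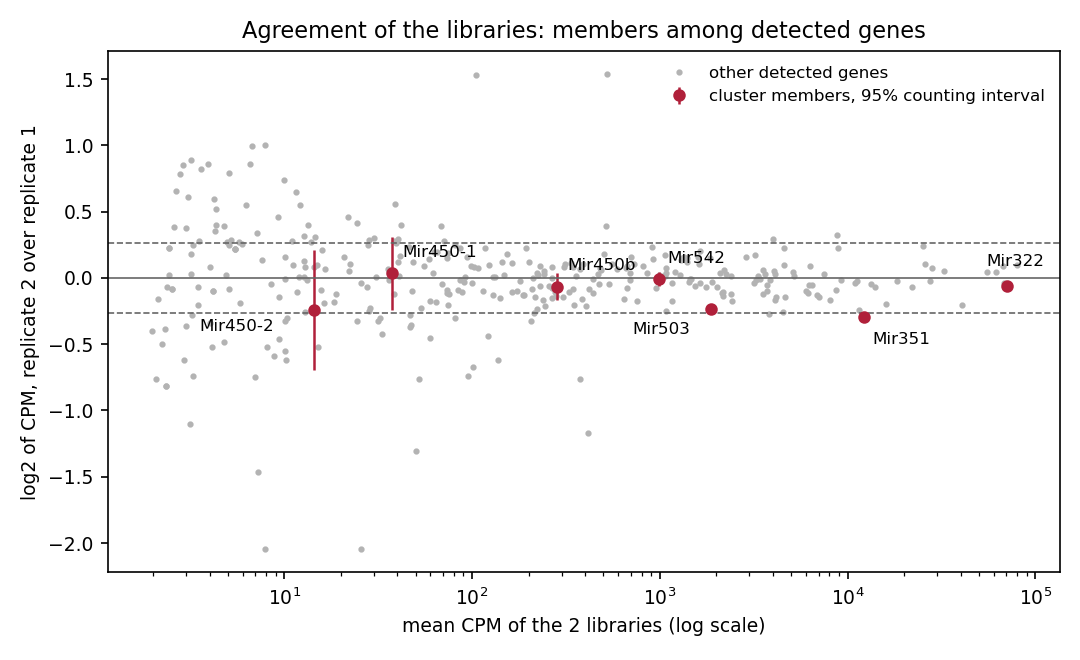
Log2 ratio of CPM in replicate 2 over replicate 1 against mean CPM (log axis) for the 357 detected genes; members are red with 95% counting intervals, and dashed lines mark 1.2-fold. Mir351 lies just below the lower line at -0.29 and Mir503 just above it at -0.23, while Mir322, Mir542 and Mir450b lie near 0.

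Reads on the strand opposite the members were all but absent. The 7 members had 0 such reads in replicate 1 and 1 in replicate 2, against Mir322, out of all their counts. Most genes were alike in this: 37 of the 357 detected genes, 10.4%, had any such read, and 12, or 3.36%, had more than 1% of their reads there. None of the 7 passed 1%. A count of 0 allows up to 3 reads, 0.560 CPM in replicate 1 and 0.462 CPM in replicate 2. The levels of the members were therefore the same whether or not strand was used, apart from the total they are divided by.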

How the data were processed

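The authors deposited unnormalised counts for each microRNA gene, on mm10 and annotation M4 per the libraries' readmes. Aligner and counter: not given in the sources used here. Every table has 3 columns of counts and 4 summary lines, which were left out of the library totals. From the totals, the columns were read as reads without regard to strand, on the annotated strand and on the opposite strand; the annotated strand was used. Reads mapped to several places, 31.4% and 30.6% of all reads in replicates 1 and 2, are listed apart and were assumed absent from the gene counts, so genes with identical products are undercounted. Arms of a hairpin are not separated, and no molecular identifiers are recorded.

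Here CPM was computed over all gene rows, and means and SDs over the 2 libraries. Names and positions came from GENCODE M21 (GRCm38, that is mm10), which matched 1894 of 1973 identifiers without version, and mature sequences from RefSeq (GRCm38.p6). Seed mates share bases 2 to 8 of a mature product. Hairpins were folded with RNAfold 2.7.2. Pairs were compared with an exact 2-sided permutation test of log2 values that were not paired by library. Ratios between libraries were given exact 95% binomial intervals. The ratio and its interval were tested on simulated counts. The permutation test was checked only on a small fixed set of values with a known answer. Members and lists were chosen with earlier results of these data known. The genes named are the 7 members, their seed mates, the Mir17 and Mir106a clusters, cell type markers, and up to 2 genes on either side of Mir322 in mean CPM (1 lay above it); Mir98, Mir652, Mir497b and the annotated neighbours of the cluster were named after their values were seen. The alternatives were strand-blind counts, each replicate left out, TMM (edgeR 4.0.16) and DESeq2 1.42.0 library sizes, other totals, other minimum counts, and genes with shared mature sequences left out. Python 3.11.15, scipy 1.17.1 and R 4.3.3 were used.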

Additional observations from a re-analysis of the deposited data

Results flagged for a closer look

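Mir497, a seed mate of Mir322 next to Mir195a on chromosome 11, has no row in the tables, but reads lie at its place. RefSeq puts miR-497a-5p at 70234730 to 70234751 on the plus strand (GRCm38.p6), inside Mir497b, which is annotated on the minus strand. On the strand opposite Mir497b there were 9049 reads in replicate 1 and 10699 in replicate 2, beside 2 and 0 on the annotated strand. This signal lies outside the column used for the levels and above the 3 reads that a count of 0 allows. With these reads added to the seed mates, an alternative chosen after seeing the data, Mir322 exceeded their sum by a log2 ratio of 2.68 in place of 2.91.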

How the results depend on the processing

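Over 24 results and 80 alternative values, 70 stayed within the limits set for them. A share or level had to stay within its SD, and a log2 ratio between genes had to keep its sign. A ratio between libraries had to stay in its counting interval, and a count near its main value. With 2 libraries, a share or level with either left out always lies within the SD, so those values could not move. Strand-blind counts could hardly move ratios between members, which had almost no opposite reads. The 70 are thus no measure of robustness. Among them 2 changed sign. These were the ratio of Mir542 between libraries, -0.01 in CPM and 0.01 with both TMM and DESeq2 size factors, inside its counting interval. Divided by all reads of the library, the cluster's share was 4.07% and Mir322 stood at 33399 per 1000000; with Mir143 left out of the total they were 9.32% and 76479 CPM. With Mir322 left out, the remaining members were below the Mir17 cluster, at a log2 ratio of -1.44. The 6 steps in the order of members and both seed comparisons kept their direction with strand-blind counts and in either replicate alone, and the count of members beyond 1.2-fold stayed at 1 under its alternatives. With genes of shared mature sequence left out, the log2 ratio was 3.38 for Mir322 over its seed mates and 1.78 for Mir351 over its own; leaving out seed mates can only raise it, so this is no check of the undercounting. The range between Mir322 and the lowest member was 249.9-fold with such genes left out. Leaving out either replicate gave a cluster share of 8.28% to 8.88%. The log2 ratios between libraries of Mir322 and Mir351 moved beyond their counting intervals with TMM, to -0.04 and -0.27, and with DESeq2 size factors, to -0.05 and -0.28, with the same sign. With 1 group, replicate numbers pair no samples across groups. The genes compared were measured in the same libraries, so their values are paired by library. The permutation tests did not use that pairing. The ratios between genes and their SDs did, since they were taken within each library.

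Counting error was largest for Mir450-2 and Mir450-1, with 84 to 247 counts per library. Those counts are taken to leave out reads of the miR-450a-5p that both genes give. The exact tests cannot go below p = 0.333 with 2 libraries. Genome-wide copies of the mature products were not searched, since no genome sequence was used here.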
